A study of Rattus norvegicus with 9 samples.

Results

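The healing tibial osteotomy of the rat was compared between 2 libraries that both came from shock-wave-treated animals and were both taken 24 h after a session, the TOE_4d_24h library on the day 4 schedule and the TOE_2d_24h library on the day 2 schedule. A cell entered the comparison when it held at least 200 detected genes and at most 20% mitochondrial UMIs (unique molecular identifiers, each of which marks 1 captured RNA molecule). This left 12411 cells in TOE_4d_24h and 14672 cells in TOE_2d_24h, together 27083 of the 115442 cells kept in the 8 libraries analysed here. Each cell was given a class from its own marker UMIs, and the classes were then compared in size and in gene levels.

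The animals were Sprague-Dawley rats of 6 to 8 weeks, and every animal carried a 3 mm circular osteotomy of the proximal tibia together with a 4 mm full-thickness skin wound on the dorsum of the foot of the same side. The TOE libraries came from rats whose osteotomy received radial extracorporeal shock waves, given in the series on postoperative days 2 and 4, and the TO libraries came from rats with osteotomy alone. The series names 9 rats and 9 samples without tying rats to libraries, so TOE_4d_24h and TOE_2d_24h are taken as 1 sample each. TOE_2d_24h followed the session of day 2 and TOE_4d_24h that of day 4, and the labels do not say whether the rat of TOE_4d_24h had also received the earlier session. The day, the number of sessions and the individual library therefore cannot be told apart, and the untreated counterpart TO_2d_24h was not analysed here. No test of the 2 libraries against each other is possible, and all values below are effect sizes.

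Bone that has been cut heals in overlapping phases. Neutrophils and inflammatory monocytes enter the blood clot first and release chemokines and cytokines, macrophages then clear debris, and cells of the mesenchymal lineage lay down collagen-rich matrix that osteoblasts mineralise. At the proximal tibia this takes place beside red marrow, where neutrophils, monocytes, red cells and B cells are made from progenitors, so a sample of the site holds blood-forming cells as well as repair tissue.

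The 8 libraries held 12451 to 17187 barcodes and 95954800 to 144146202 UMIs, with the lowest total in TOE_4d_24h and 139328385 UMIs in TOE_2d_24h. The median cell held 4911 UMIs and 1919 genes in TOE_4d_24h against 4767 UMIs and 2024 genes in TOE_2d_24h. The median mitochondrial share was 1.05% of UMIs in TOE_4d_24h and 2.54% in TOE_2d_24h, with 1.03% to 2.95% over the 8 libraries, and its part in the differences below was not tested. The filter removed 40 barcodes from TOE_4d_24h and 457 from TOE_2d_24h. Any pair of the 8 libraries shared between 39 and 108 barcode sequences.

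TOE_4d_24h stood apart from the other 7 libraries in small structural RNAs and in UMIs of genes that belong to other cell types, and these values precede the results because they move with many of them. The 702 tRNA gene models summed to 1207 CPM (UMIs of a gene per 1000000 UMIs of the same cells) in TOE_4d_24h against 214 CPM in TOE_2d_24h and 101 to 372 CPM in the other 6 libraries. Rpph1, the RNA of ribonuclease P, stood at 101 CPM against 21.1 CPM, and Rn7sl1, the RNA of the signal recognition particle, at 219 CPM against 47.6 CPM. Haemoglobin alpha (Hba-a1) in B-cell-like cells, which do not make it, was 5.42 CPM in TOE_4d_24h, 399 CPM in TOE_2d_24h and 234 to 661 CPM in the other 6 libraries. The neutrophil gene S100a8 in B-cell-like cells was 1208 CPM against 525 CPM, with 356 to 522 CPM elsewhere. For Col1a1 in B-cell-like cells it was TOE_2d_24h that stood apart, with 451 CPM against 133 CPM in TOE_4d_24h and 43.9 to 228 CPM elsewhere. RNA from outside the cell is one source of such UMIs, and its part in the gene values below was not tested. The labels describe no difference in preparation between the libraries, so whether TOE_4d_24h was handled differently, for instance in the removal of red cells, is unknown. That limit applies to all its shares and levels, with the erythroid share and haemoglobin levels among them.

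Of the 15582 genes measured in B-cell-like cells, 20.3% lay below and 26.4% lay above all 7 other libraries in TOE_4d_24h, and for TOE_2d_24h these shares were 14.4% and 12.7%. In the mesenchymal-like class the shares were 13.4% below and 10.3% above for TOE_4d_24h, and 5.26% below and 17.9% above for TOE_2d_24h. In neutrophil-like cells they were 23.81% below and 21.22% above for TOE_4d_24h, and 14.93% and 8.34% for TOE_2d_24h. In monocyte-like cells they were 18.07% below and 34.05% above for TOE_4d_24h, and 10.16% and 10.71% for TOE_2d_24h. A gene that is the highest or lowest of 8 in either library is therefore common, and the range of the other 6 libraries is printed beside the main genes below.

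The chemokines and their regulators, the heat shock chaperones and the osteoblast genes recur in the results below, and the promoters of 4 of their members are shown for reference. The sequences are RefSeq promoter windows of 300 bases on the GRCr8 assembly, from 250 bases before to 50 bases after the annotated start, written 5′ to 3′ on the strand of the gene. Capitals mark every match, on either strand, to 1 short motif per gene. For Cxcl2 and Nfkbia the motif is a form of the NF-κB site (GGG, any 2 bases, TT, any base, CC), for Hsph1 a form of the heat shock element, GAANNTTC, and for Bglap a form of the Runx site, AACCACA.

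Cxcl2, a neutrophil-attracting chemokine (chr14:17467206-17467505, minus strand, 3 matches of which 2 overlap, 74 to 54 bases before the start):
Cxcl2: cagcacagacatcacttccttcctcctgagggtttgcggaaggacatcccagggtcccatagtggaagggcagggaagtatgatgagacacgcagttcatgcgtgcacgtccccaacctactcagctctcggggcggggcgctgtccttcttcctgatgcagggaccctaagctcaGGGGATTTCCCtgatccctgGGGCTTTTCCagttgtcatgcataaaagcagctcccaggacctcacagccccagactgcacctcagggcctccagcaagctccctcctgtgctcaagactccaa
Nfkbia, the inhibitor of NF-κB that NF-κB itself induces (chr6:78597023-78597322, minus strand, 1 match 31 bases before the start):
Nfkbia: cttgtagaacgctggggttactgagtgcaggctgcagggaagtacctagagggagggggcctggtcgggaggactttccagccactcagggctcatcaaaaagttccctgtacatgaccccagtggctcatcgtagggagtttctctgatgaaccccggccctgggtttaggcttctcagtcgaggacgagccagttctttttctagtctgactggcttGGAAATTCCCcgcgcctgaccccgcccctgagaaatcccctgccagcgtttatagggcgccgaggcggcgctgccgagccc
Hsph1, a large heat shock protein that works with HSP70 (chr12:10427118-10427417, plus strand, 1 match 31 bases before the start):
Hsph1: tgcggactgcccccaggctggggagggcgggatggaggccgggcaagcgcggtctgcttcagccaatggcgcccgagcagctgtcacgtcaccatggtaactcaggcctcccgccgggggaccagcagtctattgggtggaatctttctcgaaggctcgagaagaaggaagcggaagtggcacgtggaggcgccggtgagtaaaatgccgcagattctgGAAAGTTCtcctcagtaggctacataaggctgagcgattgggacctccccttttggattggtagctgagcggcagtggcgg
Bglap, osteocalcin, a bone matrix protein of mature osteoblasts (chr2:176137269-176137568, minus strand, 1 match 119 bases before the start):
Bglap: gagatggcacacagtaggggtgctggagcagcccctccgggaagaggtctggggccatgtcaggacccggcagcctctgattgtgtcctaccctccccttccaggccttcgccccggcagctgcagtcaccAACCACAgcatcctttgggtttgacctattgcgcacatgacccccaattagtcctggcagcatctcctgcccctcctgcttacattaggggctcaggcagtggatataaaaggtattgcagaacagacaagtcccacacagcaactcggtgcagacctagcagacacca

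The NF-κB form was found in 1675 of all 33469 promoters (5.01%), in 5 of the 11 promoters found for the chemokine list (45.5%), of which Cxcl1, Cxcl2 and Ccl9 were measured in a class and Ccl20 and Cxcl6 were not, and in 6 of the 40 promoters found for the 49 genes that were at least 2-fold lower in TOE_4d_24h in all 5 of the main classes (15%), namely Cd83, Cxcl2, Gbp5, Nfkb2, Nfkbia and Rel. The heat shock form was found in 8.59% of all promoters and in 9 of 12 promoters of heat shock chaperones (75%). It was also found in 6 of the 40 promoters of the 49 lower genes (15%), the same share as the NF-κB form. The Runx form was found in 5.57% of all promoters and in 2 of 11 promoters of bone formation genes, those of Bglap and Runx2 (18.2%). A match describes these letters in this window and is not shown to be a bound site.

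B-cell-like cells were the most numerous class in both libraries. The largest fold differences in share between TOE_2d_24h and TOE_4d_24h lay in the Gpnmb/Apoe-high, erythroid-like, C1q macrophage-like and mesenchymal-like classes described below. Ratios of shares are given with exact conditional intervals and shares with exact Clopper-Pearson intervals, all at 95%, and these cover counting error only. Intervals of gene folds below are exact conditional intervals on summed UMIs. They take each UMI as independent and do not cover the spread over cells or animals. B-cell-like cells made up 53.9% of TOE_2d_24h and 57.8% of TOE_4d_24h, which is 1.07-fold higher (1.04 to 1.11), or 1.02-fold over classified cells only, where the interval of 0.991 to 1.056 includes no difference, with 49.0% to 68.2% in the other 6 libraries. Neutrophil-like cells made up 10.8% of TOE_2d_24h (1589 cells) and 25.6% of TOE_4d_24h (3176 cells), which is 2.36-fold higher (2.22 to 2.51). The neutrophil-like share of TOE_4d_24h was the highest of the 8 libraries, above a range of 6.87% to 15.5% in the other 6. The granulocyte-monocyte progenitor-like (GMP-like) cells, which carry the enzymes of the first neutrophil granules, made up 0.968% of TOE_2d_24h and 1.29% of TOE_4d_24h, a 1.33-fold difference (1.06 to 1.68) that stayed within the other 6 libraries.

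**Figure D1:**
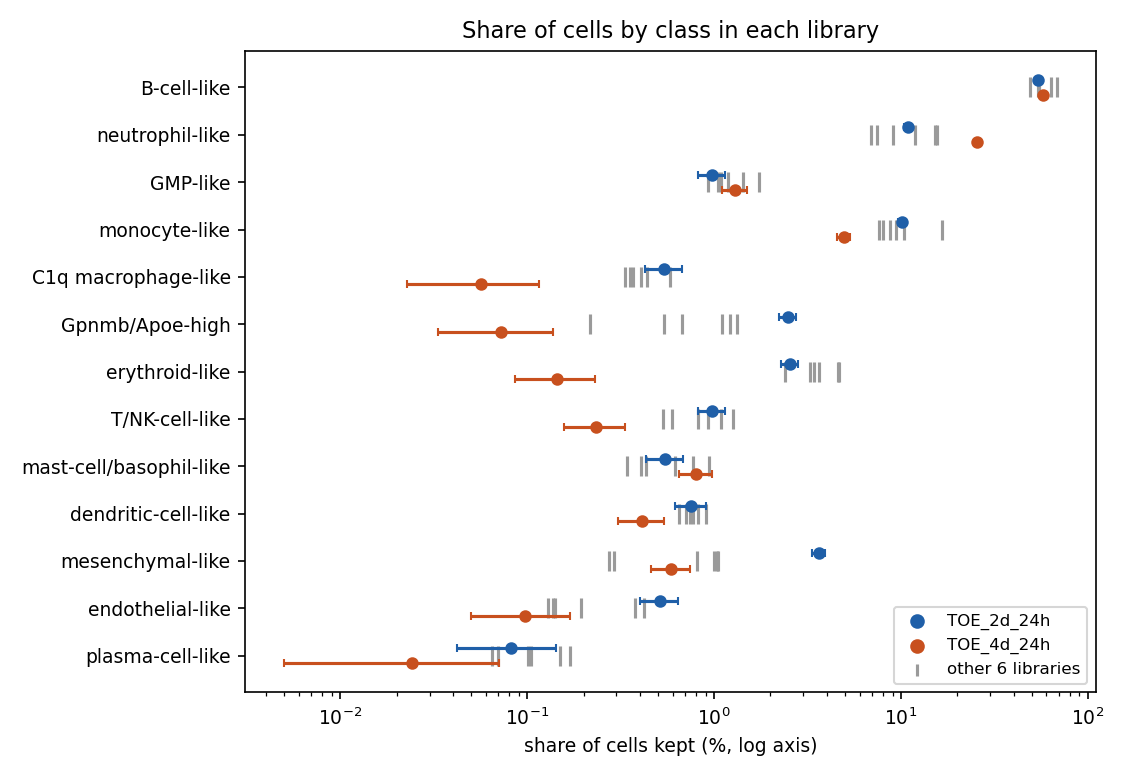
Share of cells kept, in percent on a log axis, for each cell class in TOE_2d_24h (blue) and TOE_4d_24h (orange) with exact 95% intervals, and in the other 6 libraries (grey ticks). Neutrophil-like cells of TOE_4d_24h lie above all other libraries at 25.6%. The monocyte-like, C1q macrophage-like, erythroid-like, endothelial-like, Gpnmb/Apoe-high, T/NK-cell-like, dendritic-cell-like and plasma-cell-like shares of TOE_4d_24h lie below them.

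Monocyte-like cells made up 10.1% of TOE_2d_24h (1480 cells) and 4.93% of TOE_4d_24h (612 cells), which is 2.05-fold lower (1.86 to 2.25) and the lowest of the 8 libraries. C1q macrophage-like cells, which express the complement component C1q of resident macrophages, numbered 79 (0.538%) in TOE_2d_24h and 7 (0.0564%) in TOE_4d_24h, which is 9.55-fold lower (4.42 to 24.5). A further class high in Gpnmb, Ctsk, Atp6v0d2 and Apoe, genes of lysosomes, osteoclasts and lipid handling, was defined after the clusters had been seen and carries no cell type name here. It numbered 364 cells (2.48%) in TOE_2d_24h, the highest of the 8 libraries, and 9 cells (0.0725%) in TOE_4d_24h, the lowest, a 34.2-fold difference (17.8 to 75.4), or a ratio of 0.0687 with Leiden clusters (groups of similar cells found without markers and then named). The 9 cells differed from the 364 in content, since their median C1q panel was 90.2 UMIs per 10000 against 1.00.

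Mesenchymal-like cells, gated on 15 genes of collagen matrix, osteoblasts and stromal receptors, made up 3.63% of TOE_2d_24h (532 cells) and 0.588% of TOE_4d_24h (73 cells), which is 6.17-fold lower (4.82 to 7.99), or a ratio of 0.352 with Leiden clusters. That Leiden group joined a shallow cluster (1341 and 465 cells, median of 776 UMIs) with a deep cluster (511 and 87 cells, median of 36682.5 UMIs). The other 6 libraries held 0.275% to 1.05%, so the share in TOE_2d_24h was the highest of the 8 and the share in TOE_4d_24h lay inside the range of the others. Endothelial-like cells made up 0.511% (75 cells) and 0.0967% (12 cells), which is 5.29-fold lower (2.86 to 10.7).

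Erythroid-like cells made up 2.54% of TOE_2d_24h (372 cells) and 0.145% of TOE_4d_24h (18 cells), with 2.41% to 4.66% in the other 6 libraries. The ratio of shares was 0.0572, and 0.173 with Leiden clusters. The main erythroid cluster held 404 cells of TOE_2d_24h and 0 of TOE_4d_24h, and the 62 cells of TOE_4d_24h came from a cluster that passed the threshold by 1.13 times. The 18 cells of TOE_4d_24h were also unlike those of TOE_2d_24h in content, because their haemoglobin alpha (Hba-a1) was 2869 CPM against 150156 CPM and their carbonic anhydrase 1 (Car1), an enzyme of red cells, was 5200 CPM against 987 CPM. The haemoglobin genes are near-identical copies, so the division of UMIs among them is uncertain. T/NK-cell-like cells made up 0.968% and 0.234%, which is 4.14-fold lower in TOE_4d_24h (2.76 to 6.41). Dendritic-cell-like cells made up 0.750% and 0.411%, which is 1.82-fold lower (1.30 to 2.60), although with Leiden clusters the ratio was 0.829 and its interval of 0.682 to 1.005 includes no difference. Mast-cell/basophil-like cells made up 0.545% and 0.798%, which is 1.46-fold higher (1.08 to 1.99). Plasma-cell-like cells numbered 12 and 3, a ratio of 0.296 whose interval of 0.0535 to 1.10 includes no difference. In the other 6 libraries T/NK-cell-like cells made up 0.531% to 1.26% and dendritic-cell-like cells 0.648% to 0.906%. Plasma-cell-like cells made up 0.0242% of TOE_4d_24h and 0.0647% to 0.169% of the other 6. For each of these classes TOE_4d_24h was the lowest of the 8 libraries.

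The shares of the untreated libraries TO_2d_0h and TO_4d_24h are given for comparison. TO_4d_24h matched TOE_4d_24h in day and hour, whereas TO_2d_0h was collected at 0 h and TOE_2d_24h at 24 h. From TO_2d_0h to TO_4d_24h the neutrophil-like share was 2.09-fold higher (1.94 to 2.25), the monocyte-like share had a ratio of 0.948 (0.872 to 1.03) and the mesenchymal-like share had a ratio of 0.809 (0.628 to 1.04). Other classes had untreated ratios on the other side of 1 from the treated ones, among them erythroid-like at 1.36 (1.21 to 1.53), T/NK-cell-like at 1.36 (1.08 to 1.71), C1q macrophage-like at 1.33 (0.95 to 1.88) and B-cell-like at 0.862 (0.836 to 0.889). On the same side of 1 were GMP-like at 1.47 (1.21 to 1.80), mast-cell/basophil-like at 1.53 (1.16 to 2.02) and Gpnmb/Apoe-high at 0.447 (0.337 to 0.587). The difference between the treated and the untreated pair was not tested, since each ratio rests on 1 library a side.

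Few cells given to a class lay just above its threshold, except among the few erythroid-like cells of TOE_4d_24h. Cells just below a threshold were not counted. Within 1.25 times the marker threshold there were 48 neutrophil-like cells in TOE_2d_24h and 21 in TOE_4d_24h, 37 and 20 monocyte-like cells, 5 and 2 mesenchymal-like, 7 and 2 GMP-like, 6 and 1 dendritic-cell-like, and 5 and 3 erythroid-like cells, the last being 16.7% of those of TOE_4d_24h. Cells that passed the gate of a class taken as incompatible with their own, as doublets would, were set aside. They made up 4.99% of TOE_2d_24h and 4.71% of TOE_4d_24h. Chosen pairs of classes, among them monocyte-like with mesenchymal-like or Gpnmb/Apoe-high, were exempt. A cell of such a pair kept the class whose threshold it passed by the largest factor. The median monocyte panel in mesenchymal-like cells was 12.2 UMIs per 10000 in TOE_2d_24h and 4.55 in TOE_4d_24h, against a gate of 8. This panel includes the matrix gene Vcan. The doublet caller Scrublet gave a score of at least 0.25 to 125 and 232 cells, of which 72 and 172 were among those set aside. Cells that passed no gate made up 7.18% and 3.27%. Within B-cell-like cells the median neutrophil panel was 19 UMIs per 10000 in TOE_2d_24h and 36.3 in TOE_4d_24h, and the median mesenchymal panel was 13.5 and 6.04.

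Neutrophil-like cells of TOE_4d_24h held far less chemokine RNA and more haptoglobin RNA than those of TOE_2d_24h. Of 11506 genes measured in this class (at least 50 UMIs over both libraries), 11.7% were at least 2-fold higher and 9.51% at least 2-fold lower in TOE_4d_24h, around a median log2 ratio of 0.04. Different clusters held most of the class in each library when cells were grouped without markers, with 153 and 1861 cells of TOE_2d_24h and TOE_4d_24h in 1 cluster, 1103 and 60 in another and 76 and 1020 in another. All 9 chemokines measured were at least 2-fold lower, with a median log2 ratio of -4.79, and their summed level was 2040 CPM in TOE_2d_24h and 106 CPM in TOE_4d_24h. Cxcl2 stood at 1098 CPM in TOE_2d_24h and 39.7 CPM in TOE_4d_24h, which is 27.7-fold lower (25.7 to 29.7), against 469 to 1123 CPM in the other 6 libraries. Ccl3, which attracts monocytes, stood at 733 CPM and 48.3 CPM, which is 15.2-fold lower (14.2 to 16.2), against 248 to 594 CPM elsewhere. Both chemokines were lower in TOE_4d_24h than in any other library. Ccl4 was down to 3 UMIs in TOE_4d_24h, a 92.0-fold difference with a wide interval of 30.9 to 451.

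Some other products of stimulated neutrophils were lower too, of which Acod1 and G0s2 were found by rank. Interleukin 1 beta (Il1b), the fever-inducing cytokine, was 345 CPM in TOE_2d_24h and 37.3 CPM in TOE_4d_24h, which is 9.23-fold lower (8.54 to 10.0), with 169 to 826 CPM elsewhere. Nos2, which makes nitric oxide, was 1026 and 138 CPM, Acod1, which makes itaconate, was 212 and 18.7 CPM, and Nfkbia was 1249 and 203 CPM. G0s2, an inhibitor of fat breakdown, was 1658 and 163 CPM, which is 10.2-fold lower (9.80 to 10.6), and it was 578 to 1501 CPM elsewhere. Tnf, the tumour necrosis factor gene, was close in both, at 7.26 and 5.88 CPM. Of 26 immediate-early genes 14 were at least 2-fold lower and 2 at least 2-fold higher. Of the 15 genes of the interleukin and TNF system, 7 were at least 2-fold lower and 0 at least 2-fold higher.

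Genes of the mature neutrophil were mixed. Of 13 measured, 5 were at least 2-fold higher in TOE_4d_24h, namely Fpr1, Ccl6, Cxcr2, Selplg and Csf3r, and 2 were at least 2-fold lower, Slpi and Cxcr4. The higher ones were 3 when mitochondrial, ribosomal and haemoglobin genes were left out of the total. The formyl peptide receptor Fpr1 was 83.8 CPM in TOE_2d_24h and 216 CPM in TOE_4d_24h, against 73.3 to 144 CPM in the other 6. Cxcr2, the receptor for Cxcl2, was 53.9 and 126 CPM (71.6 to 109 elsewhere), and Csf3r, the receptor for the growth factor G-CSF, was 70.4 and 143 CPM (72.1 to 108 elsewhere). These receptors were higher in TOE_4d_24h than in any other library. Cxcr2 and Csf3r were among the 11 genes that gated the class, so their levels and calls are a description. The protease inhibitor Slpi was 841 and 261 CPM, and Cxcr4, which holds neutrophils in marrow, was 298 and 118 CPM.

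Granule genes differed less. None of 9 secondary and tertiary granule genes passed 2-fold, with a median log2 ratio of 0.53 and a sum of 26587 CPM in TOE_2d_24h and 35938 CPM in TOE_4d_24h. Among them the antimicrobial peptide Camp was 15807 and 19256 CPM and the collagenase Mmp8 was 2464 and 3559 CPM. S100a8 was 69556 and 107631 CPM, whereas its partner S100a9 was 166003 and 168802 CPM. These genes belong to the marker panel that defined the class, so their presence is no finding. The defensin Defa5, of the primary granules, was 18425 CPM and 9576 CPM, which is 1.92-fold lower.

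Haptoglobin (Hp), which binds free haemoglobin, was 304 CPM in TOE_2d_24h and 1994 CPM in TOE_4d_24h, which is 6.56-fold higher (6.34 to 6.79). The other 6 libraries spanned 273 to 2259 CPM, with 1308 CPM in TO_4d_24h, so both libraries lay inside the range of the series for this gene. The iron store Fth1, ferritin heavy chain, went the other way, with 3049 CPM and 814 CPM, below the 1697 to 4489 CPM of the other 6. Among genes found by rank, Dlgap2, best known from synapses, was 0.854 CPM in TOE_2d_24h and 85.6 CPM in TOE_4d_24h, which is 100.3-fold higher (54.4 to 210), with 0.587 to 13.4 CPM elsewhere.

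**Figure D2:**
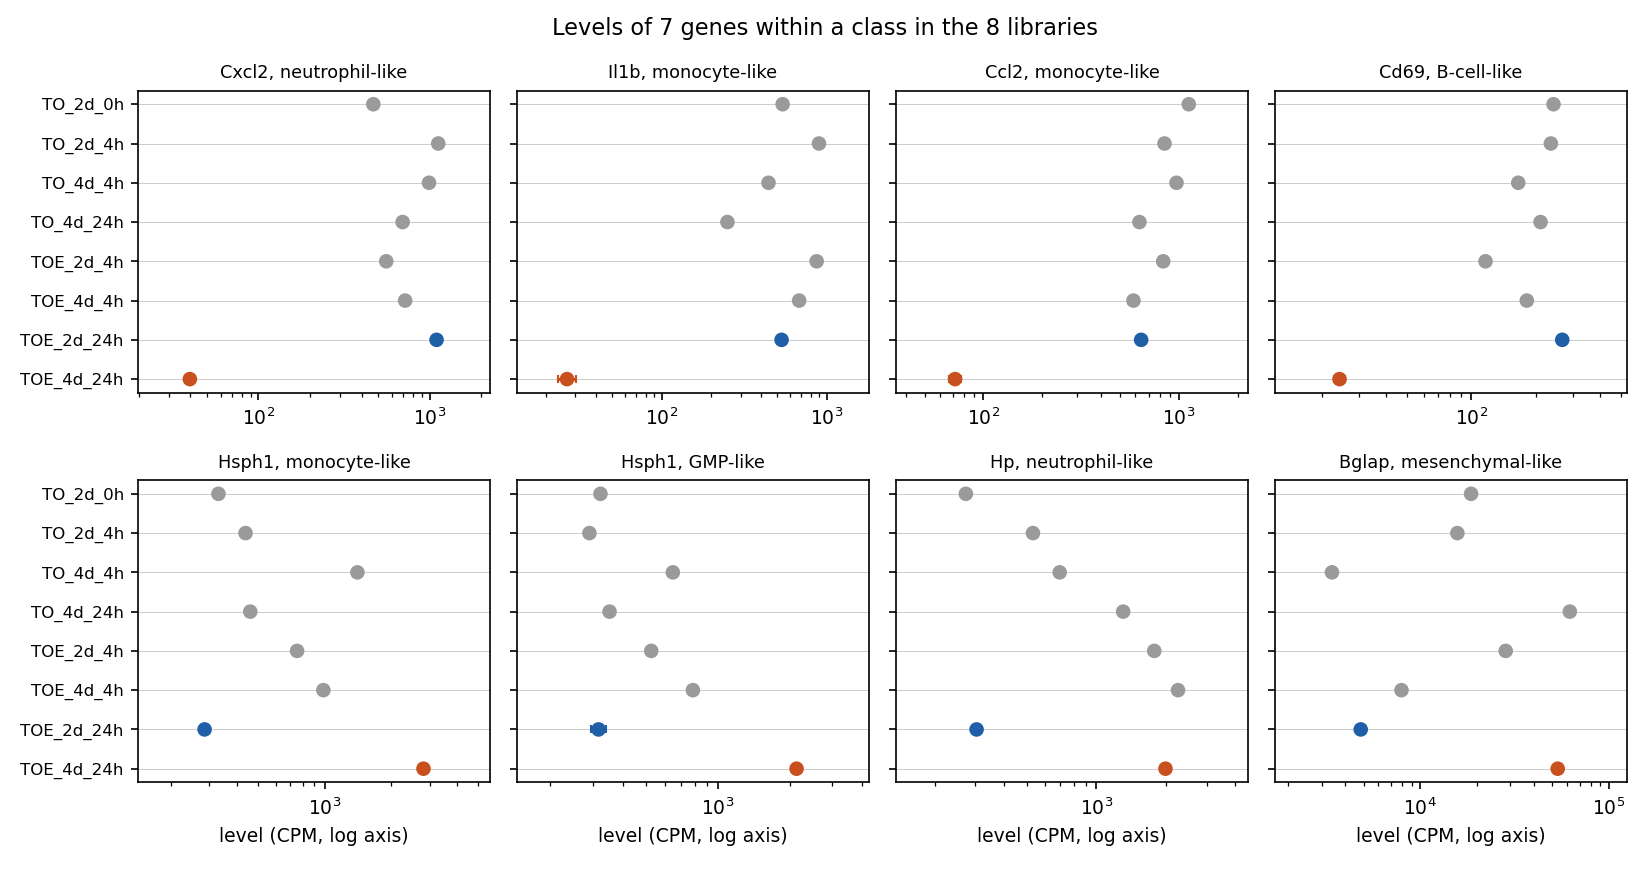
Levels of 7 genes within named cell classes in the 8 libraries, in CPM on a log axis, with Hsph1 shown in monocyte-like and in GMP-like cells. TOE_4d_24h is the lowest of the 8 libraries for Cxcl2, Il1b, Ccl2 and Cd69 and the highest for Hsph1, whereas for Hp and Bglap both TOE_4d_24h and TOE_2d_24h lie inside the range of the others.

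Counted per cell at equal depth, fewer neutrophil-like cells of TOE_4d_24h held any RNA of the Cxcl2 group. After each cell was thinned to 1500 UMIs, 40.6% of 1428 neutrophil-like cells of TOE_2d_24h (37.99 to 43.2) and 1.95% of 3020 in TOE_4d_24h (1.49 to 2.51) held a UMI of Cxcl1, Cxcl2 or Cxcl3. The shares before thinning were 58.5% and 4.22%, and 161 and 156 shallower cells were left out. In B-cell-like cells, taken as a background class, the thinned shares were 8.29% and 0.428%, at median depths of 4112 and 4273 UMIs against 5796 and 5303 UMIs in neutrophil-like cells. The other 6 libraries held 18.4% to 38.6%. At least 2 UMIs of Hp were held by 12.1% and 61.4% of thinned neutrophil-like cells (38.1% and 77.7% before thinning), against 0% (0 of 7399 cells, which allows a share of up to 0.0406%, taken as 3 cells of the total) and 0.266% in B-cell-like cells. At least 10 UMIs of defensins were held by 19.5% and 11.2% (27.3% and 17.4% before thinning), against 0.338% and 0.207% in B-cell-like cells.

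GMP-like cells, with 142 cells in TOE_2d_24h and 160 in TOE_4d_24h, had more RNA of heat shock chaperones, proteins that refold damaged protein, and less of chemokines. Of 7838 genes measured, 3.99% were at least 2-fold higher and 3.97% at least 2-fold lower in TOE_4d_24h, with a median log2 ratio of 0.01. That even split moved with the processing. Without mitochondrial, ribosomal and haemoglobin genes in the total 62.0% rather than 50.2% of the genes past 2-fold were the higher ones, and with the mean over cells 59.9%. The share was 50.2% under a stricter filter of 500 genes and 10% mitochondrial UMIs, 49.2% with a prior of 5 UMIs and 41.7% among genes with at least 200 UMIs. The mean over cells also raised the counts, from 313 higher and 311 lower to 957 and 641. Of 14 heat shock chaperones measured, 10 were at least 2-fold higher and all 14 were higher by some amount, with a median log2 ratio of 1.38 and a sum of 8351 CPM and 18650 CPM. Hsph1 was 318 CPM in TOE_2d_24h and 2128 CPM in TOE_4d_24h, which is 6.70-fold higher (6.23 to 7.22), against 291 to 786 CPM in the other 6 libraries. The constitutive HSP70 gene Hspa8 was 703 and 1831 CPM, the mitochondrial co-chaperonin Hspe1 was 619 and 1713 CPM, and the HSP70 co-chaperone Bag3 was 56.4 and 197 CPM. In TOE_4d_24h, 9 of the 14 chaperones lay above all 7 other libraries, as did 13.4% of all genes measured in the class. Hspa1a and Hspa1b are near-identical copies, so their separate levels are uncertain.

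The granule enzymes of GMP-like cells were near each other in the 2 libraries, with Elane (neutrophil elastase) at 6257 CPM in TOE_2d_24h and 7153 CPM in TOE_4d_24h and Mpo (myeloperoxidase) at 2674 and 3292 CPM. Prtn3 (proteinase 3) was 2336 and 4733 CPM, with 2993 to 6283 CPM elsewhere, so TOE_2d_24h was the lowest of the 8 libraries for this gene. All of these were among the 5 genes that gated the class. Prg2, the major basic protein of eosinophil granules, was 17.8 CPM and 975 CPM, which is 54.9-fold higher (40.9 to 75.5), with 4.39 to 78.2 CPM elsewhere and 199 and 481 CPM in all other cells. Prg2 was at least 2-fold higher in all 5 main classes, so the rise was not particular to GMP-like cells, and the part of free RNA was not tested. Anxa1, an anti-inflammatory protein, was 2855 and 924 CPM (1432 to 2203 elsewhere), and Inhba, a subunit of activin, was 119 and 19.5 CPM (27.0 to 70.9 elsewhere). All 5 chemokines measured were at least 2-fold lower, with a median log2 ratio of -2.96.

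Monocyte-like cells of TOE_4d_24h combined low chemokine and cytokine RNA with high heat shock chaperone RNA. Of 12983 genes measured, 10.8% were at least 2-fold higher and 9.84% at least 2-fold lower in TOE_4d_24h, with a median log2 ratio of 0.10. The class also fell into clusters by library, with 1276 cells of TOE_2d_24h and 22 of TOE_4d_24h in 1 and 138 and 694 in another. Of 14 chemokines, 13 were at least 2-fold lower and 1, Cxcl14, was at least 2-fold higher, with a median log2 ratio of -3.09 and a sum of 4059 CPM and 625 CPM. Il1b was 532 CPM in TOE_2d_24h and 26.7 CPM in TOE_4d_24h, which is 19.9-fold lower (17.6 to 22.7), against 250 to 896 CPM in the other 6 libraries. Ccl2, the main attractant of monocytes, was 641 and 71.7 CPM, which is 8.95-fold lower (8.29 to 9.68), against 586 to 1124 CPM. Both were lower in TOE_4d_24h than in any other library. Ccl7, a close relative of Ccl2, was 135 and 9.57 CPM, and Ccl4 was 132 and 2.02 CPM.

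Of 17 genes of the interleukin and TNF system, 10 were at least 2-fold lower in monocyte-like cells, with a median log2 ratio of -1.75, and Tnf was 51.8 and 11.7 CPM. Vegfa, which drives vessel growth, was 136 CPM in TOE_2d_24h and 16.5 CPM in TOE_4d_24h, below the 73.6 to 161 CPM of the other 6. Cd14, the endotoxin co-receptor, was 390 and 40.0 CPM, which is 9.74-fold lower (8.79 to 10.8), and it is 1 of the 9 markers that gated the class. When Cd14 was dropped from the gate, an alternative chosen after its values were seen, the ratio of monocyte-like shares was 0.508 (0.461 to 0.559). The other markers were mixed. Vcan, a matrix proteoglycan, was 878 and 455 CPM, and F13a1, a clotting factor subunit, was 34.8 and 72.5 CPM. Ly6c was 486 and 477 CPM, a 1.02-fold difference (0.985 to 1.05), Ccr2, the receptor for Ccl2, was 328 and 451 CPM, and Csf1r, the receptor for M-CSF, was 171 and 160 CPM. Of 14 macrophage complement and scavenger genes, 8 were at least 2-fold lower, with a median log2 ratio of -1.30, among them Msr1, a scavenger receptor, at 155 and 57.3 CPM.

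Of 14 heat shock chaperones in monocyte-like cells, 6 were at least 2-fold higher and 1 at least 2-fold lower, with a median log2 ratio of 0.89 and a sum of 6403 CPM and 15330 CPM. In TOE_4d_24h, 6 of the 14 lay above all 7 other libraries (42.9%), as did 34.05% of all genes measured in the class. Hsph1 was 285 CPM in TOE_2d_24h and 2815 CPM in TOE_4d_24h, which is 9.88-fold higher (9.64 to 10.1), against 330 to 1410 CPM in the other 6 libraries. Hspa1a was 656 and 3200 CPM, against 481 to 1792 CPM. The exception was the small chaperone Hspb1, at 71.3 and 20.6 CPM. Hspa1a in B-cell-like cells of the same libraries was 88.3 and 92.2 CPM, so the difference in this gene was not shared by all classes. Immediate-early genes, which respond within minutes to stimulation, were divided, with 11 of 26 at least 2-fold lower and Egr1 at 94.4 and 268 CPM.

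At equal depth of 1500 UMIs, 34.0% of 1452 monocyte-like cells of TOE_2d_24h and 3.36% of 596 in TOE_4d_24h held Il1b (70.7% and 7.03% before thinning), against 2.61% and 0.148% of B-cell-like cells. Ccl2 or Ccl7 was held by 44.5% and 6.04% (77.4% and 13.7% before thinning), against 3.15% and 0.148% of B-cell-like cells. At least 3 UMIs of Hspa1a and Hsph1 were held by 14.9% and 54.0% (51.0% and 72.7% before thinning), with 10.3% to 40.4% in the other 6 libraries, and no background share is given because no class is known to lack these chaperones. The median depth of the class was 17754 UMIs in TOE_2d_24h and 13949 UMIs in TOE_4d_24h, and 28 and 16 shallower cells were left out.

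**Figure D3:**
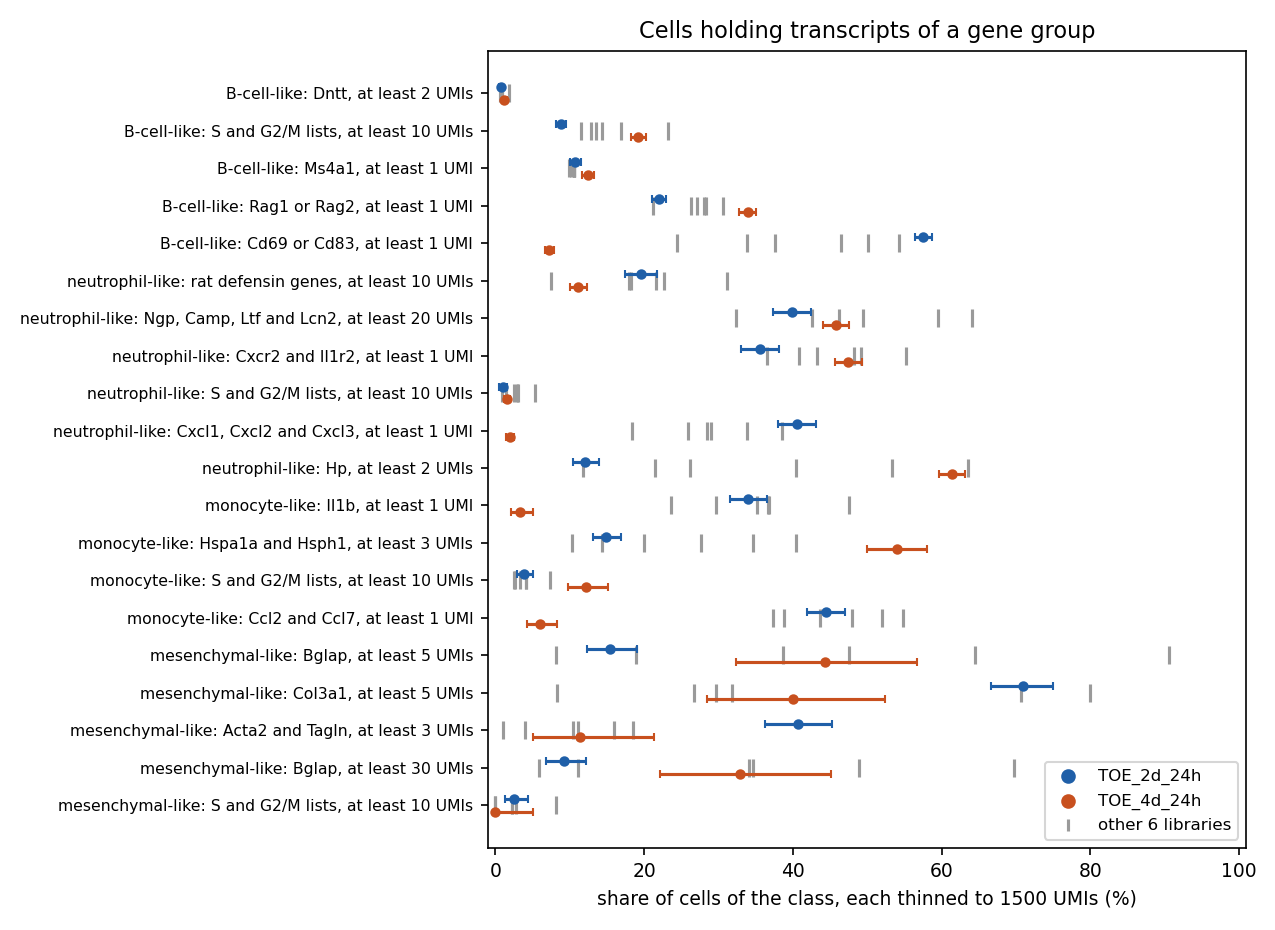
Share of cells, in percent, that hold transcripts of a gene group after every cell was thinned to 1500 UMIs, by class and library, with exact 95% intervals for TOE_2d_24h and TOE_4d_24h. The shares with Cxcl1, Cxcl2 or Cxcl3 in neutrophil-like cells (40.6% and 1.95%), with Il1b in monocyte-like cells (34.0% and 3.36%) and with Cd69 or Cd83 in B-cell-like cells (57.5% and 7.29%) are lower in TOE_4d_24h.

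B-cell-like cells of TOE_4d_24h had less RNA of immediate-early genes and more of mitotic genes. Of 15582 genes measured, 13.4% were at least 2-fold higher and 9.95% at least 2-fold lower in TOE_4d_24h, with a median log2 ratio of 0.13. Different clusters held most of the class in the 2 libraries when cells were grouped without markers, for example 1 cluster of 4222 cells of TOE_2d_24h and 27 of TOE_4d_24h and another of 491 and 3721. Cd69, an early activation antigen, was 267 CPM in TOE_2d_24h and 24.2 CPM in TOE_4d_24h, which is 11.01-fold lower (10.4 to 11.7), against 117 to 243 CPM in the other 6 libraries. Cd83, another activation antigen, was 515 and 59.3 CPM, against 141 to 391 CPM. Both genes were the highest of 8 in TOE_2d_24h and the lowest of 8 in TOE_4d_24h. A UMI of Cd69 or Cd83 was held by 57.5% of 7399 thinned cells and 7.29% of 6777 (76.9% and 15.1% before thinning), with 24.4% to 54.2% elsewhere and 4.69% and 0.629% in neutrophil-like cells.

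Genes induced by stress or stimulation were mostly lower. Of 26 immediate-early genes, 21 were at least 2-fold lower and 0 at least 2-fold higher, with a median log2 ratio of -1.69, among them Jun at 1429 and 356 CPM, Klf4 at 138 and 19.5 CPM and Nr4a1 at 145 and 32.7 CPM. Of 12 genes of the integrated stress response, which adjusts translation when amino acids or folding capacity run short, 8 were at least 2-fold lower, with a median log2 ratio of -1.85. Its transcription factors Atf4 (560 and 163 CPM) and Ddit3 (552 and 145 CPM) lay below the other 7 libraries in TOE_4d_24h. Of 14 heat shock chaperones in B-cell-like cells 6 were at least 2-fold lower and 0 at least 2-fold higher. The death-promoting gene Bbc3 was 98.4 and 7.70 CPM, and Id2, which blocks the B-lineage factor E2A, was 236 and 16.8 CPM, against 91.7 to 159 CPM.

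Of 20 genes of G2 and M phase, 12 were at least 2-fold higher and all 20 were higher by some amount, with a median log2 ratio of 1.07, whereas 1 of 16 S phase genes passed 2-fold, with a median of 0.25. Top2a, which untangles chromosomes, was 322 CPM in TOE_2d_24h and 725 CPM in TOE_4d_24h, against 295 to 666 CPM in the other 6, and the spindle protein Nusap1 was 94.2 and 285 CPM, against 93.1 to 217 CPM. At least 10 UMIs of cell cycle genes were held by 8.87% and 19.2% of thinned cells (15.8% and 28.4% before thinning), and 11.5% to 23.2% elsewhere, so TOE_2d_24h was the lowest of the 8 libraries and TOE_4d_24h lay inside their range.

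Of 11 B-cell precursor genes, 3 were at least 2-fold higher in TOE_4d_24h, namely Rag2, Il7r and Igll1, and 1, Sox4, was at least 2-fold lower, with a median log2 ratio of 0.64 but a sum of 1620 and 1562 CPM. Rag2, 1 of the recombinase genes that cut antibody gene segments, was 24.9 and 84.8 CPM, against 23.9 to 71.4 CPM, while its partner Rag1 was 153 and 188 CPM. Il7r, the receptor for the growth factor IL-7, was 60.3 and 132 CPM, and Pax5, the factor that fixes B-cell identity, was 675 and 1348 CPM (545 to 928 elsewhere). Sox4, a transcription factor of early B cells, was 831 and 175 CPM (454 to 737 elsewhere). Rag1 or Rag2 was held by 22.0% and 33.9% of thinned cells (38.4% and 56.3% before thinning), and by 0.770% and 1.06% of neutrophil-like cells. Igll1, Pax5 and Rag1 were among the 11 genes that gated the class, so their values and the share with Rag1 or Rag2 are a description.

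Of 14 mature B-cell genes, 8 were at least 2-fold lower and 1, the complement receptor Cr2, was at least 2-fold higher, with a median log2 ratio of -1.13. Cd74, the invariant chain of MHC class II, was 831 and 304 CPM, against 700.0 to 1013 CPM elsewhere, and the class II gene RT1-Da was 313 and 94.5 CPM. The RT1 genes are near-identical copies, so their division is uncertain. Ms4a1, which encodes CD20, was near equal at 82.9 and 101 CPM, and Cd79a, part of the B-cell receptor, was 2037 and 1924 CPM. Ms4a1 and Cd79a were also among the genes that gated the class.

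All 12 chemokines measured in B-cell-like cells were at least 2-fold lower as well, with a median log2 ratio of -3.55, and so were all 13 collagens, with a sum of 923 CPM and 227 CPM. B cells are not known to make fibrillar collagen. Cxcl2 in B-cell-like cells was 39.8 and 2.62 CPM, and in all other cells 753 and 75.3 CPM, and the source of either group of UMIs was not tested.

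Mast-cell/basophil-like cells, 80 in TOE_2d_24h and 99 in TOE_4d_24h, had less chemokine and immediate-early RNA and more mitotic RNA in TOE_4d_24h. Of 5439 genes measured, 9.74% were at least 2-fold higher and 7.63% at least 2-fold lower in TOE_4d_24h, with a median log2 ratio of 0.13. The higher genes made up 56.1% of those past 2-fold, against 68.7% with the mean over cells and 38% with a prior of 5 UMIs, and the direction of the class as a whole is thus not fixed. The median depth was 5837 and 10824 UMIs per cell. All 16 genes of G2 and M phase measured were at least 2-fold higher, with a median log2 ratio of 2.03 and a sum of 378 CPM and 1553 CPM. Top2a was 44.1 and 231 CPM, and the other 6 libraries held 132 to 260 CPM, so the low value was that of TOE_2d_24h.

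Of 21 immediate-early genes in these cells, 17 were at least 2-fold lower, as were 3 of 3 chemokines and 3 of 4 interleukin and TNF system genes measured. Osm, oncostatin M, a cytokine that acts on bone-forming cells, was 472 CPM in TOE_2d_24h and 21.6 CPM in TOE_4d_24h, against 60.2 to 211 CPM in the other 6 libraries. Ereg, a ligand of the EGF receptor, was 309 and 8.09 CPM, which is 38.2-fold lower (21.3 to 75.2), against 13.7 to 55.5 CPM. Both genes were the highest of 8 in TOE_2d_24h and the lowest of 8 in TOE_4d_24h. The basophil protease Mcpt8, a marker of the class, was 30590 and 47204 CPM, and the eosinophil granule genes Epx and Prg3 were 45.8 and 235 CPM and 45.8 and 212 CPM. Both turned direction when the cells were taken from Leiden clusters, with log2 ratios of -0.43 for Epx and -0.96 for Prg3.

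Dendritic-cell-like cells, 110 in TOE_2d_24h and 51 in TOE_4d_24h, had Siglech, a marker of plasmacytoid dendritic cells, at 776 and 978 CPM and Clec9a, a marker of conventional ones, at 11.2 CPM and 3 UMIs (3.41 CPM). Of 7183 genes measured, 7.21% were at least 2-fold higher and 8.85% at least 2-fold lower in TOE_4d_24h, with a median log2 ratio of 0.03. The higher genes made up 44.9% of those past 2-fold, against 53.6% with a prior of 5 UMIs, 52.7% with Leiden clusters and 25.6% among genes with at least 200 UMIs. Of 8 chemokines, 7 were at least 2-fold lower, and of 20 genes of G2 and M phase 11 were at least 2-fold higher, with a median log2 ratio of 1.15. The class II gene RT1-Da was 2989 and 1337 CPM, and Cd74 was 3561 and 1992 CPM. The chemokine Xcl1 was 51.8 CPM in TOE_2d_24h and 1 UMI in TOE_4d_24h, a 45.6-fold difference with an interval of 8.00 to 1816, against 38.6 to 80.0 CPM elsewhere. Runx2, which plasmacytoid dendritic cells use for leaving the marrow, was 626 and 1399 CPM.

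Mesenchymal-like cells were fewer in TOE_4d_24h, and those present carried less RNA of chemokine and marrow-support genes. The levels and shares of osteocalcin (Bglap), type I collagen, Col3a1, Ibsp and Sp7 below are a description, because these genes were among those that gated the class. The 73 cells of TOE_4d_24h had a median of 19953 UMIs and the 532 cells of TOE_2d_24h a median of 34570 UMIs. Of 12252 genes measured, 6.28% were at least 2-fold higher and 13.3% at least 2-fold lower in TOE_4d_24h, with a median log2 ratio of -0.20. The balance depended on the processing, with the higher genes at 32.1% of those past 2-fold as reported, 24.2% without mitochondrial, ribosomal and haemoglobin genes, 48.2% with cluster membership and 64.9% with a prior of 5 UMIs.

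Of 15 bone formation genes, 6 were at least 2-fold higher and all 15 were higher by some amount, with a median log2 ratio of 0.91 and a sum of 10822 CPM and 63346 CPM, of which Bglap alone made 4834 and 53518 CPM. With Leiden clusters 3 of them were at least 2-fold higher. The level of Bglap in TOE_4d_24h was 11.1-fold higher (10.97 to 11.2), an interval of UMI counting that leaves out the spread over cells. The other 6 libraries spanned 3402 to 62048 CPM, the highest being TO_4d_24h, so the level of TOE_4d_24h was matched by the untreated library of the same day and hour. In B-cell-like cells Bglap was 210 and 155 CPM and in neutrophil-like cells 176 and 155 CPM.

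The regulators of osteoblast identity differed less than Bglap, although Sp7 and Bglap both gated the class. Runx2, the master regulator of the lineage, was 355 CPM and 667 CPM, and Sp7 (osterix), which acts after it, was 48.1 and 80.2 CPM. Among matrix proteins, Spp1 (osteopontin) was 971 and 2637 CPM and Ibsp (bone sialoprotein) was 3020 and 3567 CPM. Omd (osteomodulin), a late osteoblast proteoglycan, was 31.1 and 166 CPM, against 5.03 to 153 CPM in the other 6, and Smpd3, an enzyme needed for mineralisation, was 153 and 449 CPM, against 52.5 to 441 CPM. The osteocyte gene Dmp1 was 51.2 and 78.0 CPM.

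**Figure D4:**
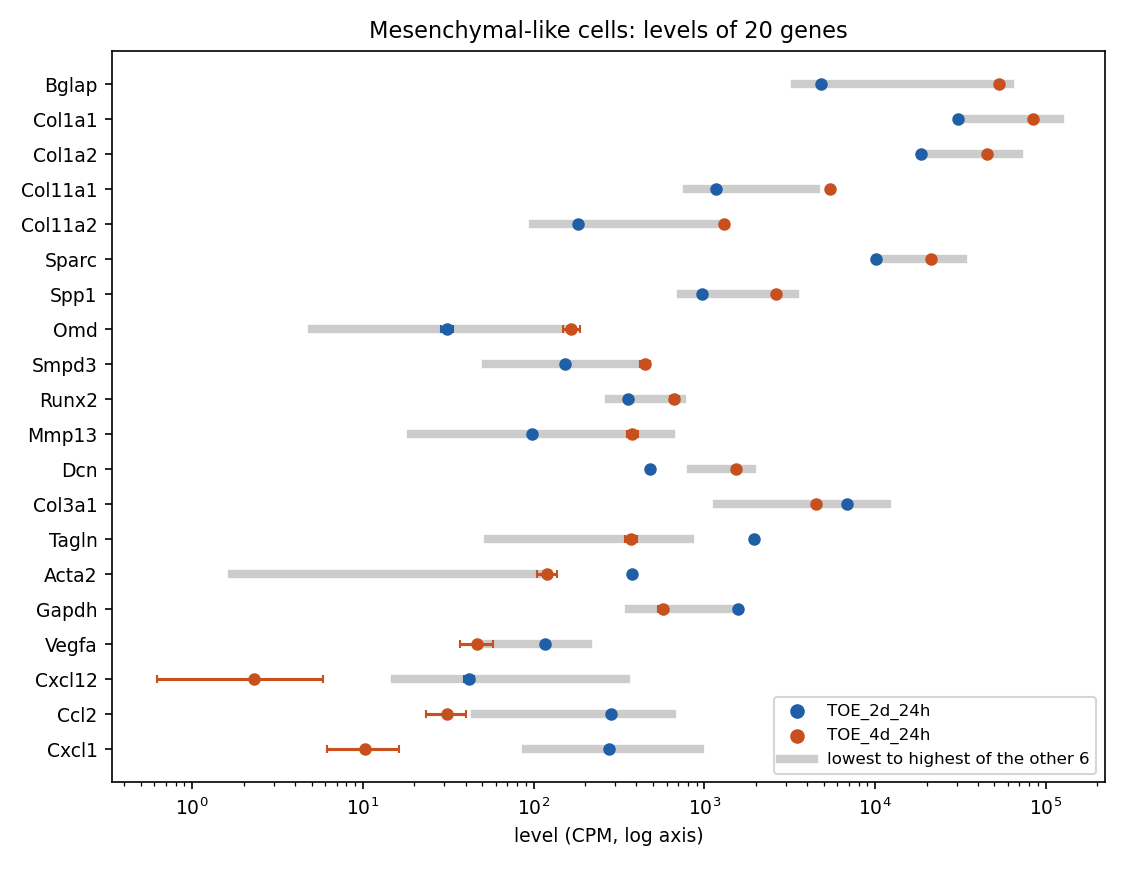
Levels of 20 genes in mesenchymal-like cells, in CPM on a log axis, in TOE_2d_24h (blue) and TOE_4d_24h (orange), with a grey bar from the lowest to the highest of the other 6 libraries. Bglap, Col1a1 and Omd are higher in TOE_4d_24h, and Tagln, Cxcl12 and Gapdh are lower.

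Of 14 fibrillar and associated collagens measured, 4 were at least 2-fold higher (Col11a1, Col1a1, Col1a2 and Col16a1) and 2 at least 2-fold lower (Col5a3 and Col15a1), with a sum of 64228 CPM and 147018 CPM. With Leiden clusters or the mean over cells 2 were at least 2-fold higher. Col1a1, the main protein of bone matrix, was 30480 CPM in TOE_2d_24h and 83602 CPM in TOE_4d_24h, against 34075 to 120473 CPM elsewhere. The low value was that of TOE_2d_24h, which lay below the other 6. Col3a1, the collagen of early granulation tissue, was 6850 and 4498 CPM. At least 5 UMIs of Col3a1 were held by 71.0% and 40% of cells thinned to 1500 UMIs (85.2% and 60.3% before thinning). None of 13 collagen processing genes passed 2-fold, with a median log2 ratio of 0.05.

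Osteocalcin was unevenly spread over cells. At least 5 UMIs of Bglap were held by 15.5% of 479 thinned cells in TOE_2d_24h (12.3 to 19) and by 44.3% of 70 in TOE_4d_24h (32.4 to 56.7), with 53 and 3 shallower cells left out. The unthinned shares were 52.1% and 57.5%, which are closer to each other. The cells of TOE_2d_24h were deeper, and the part of depth or of free RNA in this was not tested. At least 30 UMIs were held by 9.19% and 32.9% (17.9% and 45.2% before thinning), and in B-cell-like cells 0.838% and 0.177% held at least 5. The other 6 libraries ranged from 8.15% to 90.6% for the 5 UMI share.

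Some contractile genes were high in TOE_2d_24h. Of the 6 pericyte and smooth muscle markers measured, 3 were at least 2-fold lower in TOE_4d_24h (Des, Acta2 and Myh11) and the other 3 were higher by less than 2-fold, with a median log2 ratio of -0.38. Tagln, an actin-binding protein of smooth muscle and myofibroblasts, was 1947 CPM in TOE_2d_24h and 371 CPM in TOE_4d_24h, with 54.2 to 829 CPM in the other 6 libraries. Acta2, smooth muscle actin, was 379 and 120 CPM, with 1.71 to 119 CPM elsewhere. TOE_2d_24h was the highest of the 8 libraries for both. Cnn1, calponin of smooth muscle, was 23.1 CPM and had 0 UMIs in TOE_4d_24h, which is at least 13.4-fold lower against a floor of 3 UMIs. At least 3 UMIs of Acta2 and Tagln were held by 40.7% and 11.4% of thinned cells (69.0% and 34.3% before thinning).

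Support factors for blood formation were lower, with 7 of 10 marrow niche genes at least 2-fold lower, 0 at least 2-fold higher and a median log2 ratio of -1.59. Cxcl12, which retains blood progenitors in marrow, was 42.1 CPM in TOE_2d_24h and 4 UMIs (2.29 CPM) in TOE_4d_24h, an 18.3-fold difference (7.14 to 67.5), with 15.4 to 349 CPM in the other 6 libraries. Kitlg, stem cell factor, was 55.4 and 14.9 CPM, and Vcam1, an adhesion molecule, was 24.9 CPM and 2 UMIs. Of 12 angiogenesis genes, 7 were at least 2-fold lower, with Vegfa at 116 and 46.4 CPM. Of 22 growth factor genes, 7 were at least 2-fold lower, among them Bmp2 at 92.0 and 20.1 CPM and Fgf7 at 41.6 and 10.3 CPM, and 2 were at least 2-fold higher, H19 and Igfbp5. Igfbp5, the binding protein for insulin-like growth factors most abundant in bone, was 30.4 and 379 CPM, above the 55.1 to 139 CPM of the other 6.

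Among metabolism and proliferation genes of the same class, more passed 2-fold downwards than upwards. Of 19 hypoxia and glycolysis genes, 9 were at least 2-fold lower, among them Gapdh at 1574 and 571 CPM and Pgk1 at 492 and 123 CPM, and in monocyte-like cells 4 of 19 were. Of 16 S phase genes, 11 were at least 2-fold lower and of 20 G2 and M phase genes 10 were. These calls depended on the cells taken, since with Leiden clusters 5 hypoxia and glycolysis, 1 S phase and 0 G2 and M phase genes were lower, and with the mean over cells 7 S phase and 4 G2 and M phase genes. The Leiden group included the shallow cluster with a median of 776 UMIs. At 1500 UMIs per cell 2.51% of mesenchymal-like cells in TOE_2d_24h and 0 of 70 in TOE_4d_24h, which allows up to 4.29% when taken as 3 cells of the total and up to 5.13% by the exact interval, passed the cell cycle criterion, so a difference was not detectable at this depth. All 28 ribosomal protein genes were lower by some amount and 5 at least 2-fold.

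Chemokines were lower here as well, 9 of 11 at least 2-fold, with Ccl2 at 285 and 31.0 CPM, and the 1 that was at least 2-fold higher was again Cxcl14, at 17.3 and 48.7 CPM. Of 15 interleukin and TNF system genes, 12 were at least 2-fold lower and 0 at least 2-fold higher, but only 5 were lower with a prior of 5 UMIs. Among the fewer members with at least 200 UMIs 4 were lower, with a median log2 ratio of -1.39. Of 15 heat shock chaperones, 4 were at least 2-fold lower and 0 at least 2-fold higher, with a median log2 ratio of -0.41. The median monocyte panel in mesenchymal-like cells was 12.2 UMIs per 10000 in TOE_2d_24h and 4.55 in TOE_4d_24h. The panel includes the matrix genes Vcan and Fn1, so it does not measure monocyte RNA alone, and its part in the chemokine values was not tested. Of 17 genes of the small vesicle machinery, 3 were at least 2-fold higher and 1 at least 2-fold lower, with the exosome marker Cd63 at 2118 and 2216 CPM and Rab27a, which docks vesicles for release, at 10.1 and 25.2 CPM. Of 9 genes of the ATP, P2X7 and p38 list, 1 was at least 2-fold higher and 2 at least 2-fold lower.

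Genes found by rank in mesenchymal-like cells included Ostn (osteocrin), a peptide of osteoblasts, at 8.83 CPM in TOE_2d_24h and 96.9 CPM in TOE_4d_24h, against 0.479 to 46.6 CPM in the other 6 libraries. Foxp2, a transcription factor, was 6.09 and 88.3 CPM, and Sema3e, a guidance molecule, was 7.03 and 96.9 CPM. In the other direction, Rrad, a small GTP-binding protein, was 78.0 CPM in TOE_2d_24h and 1 UMI in TOE_4d_24h, a 136-fold difference with an interval of 24.4 to 5375.

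Across B-cell-like, neutrophil-like, GMP-like, monocyte-like and mesenchymal-like cells, 7565 genes were measured in all 5 classes. Of these 49 were at least 2-fold lower in TOE_4d_24h in every class and 35 at least 2-fold higher. The 49 included the chemokines Ccl2, Ccl3, Ccl4, Ccl7 and Cxcl2, the cytokine Il1b, the NF-κB family genes Nfkb2 and Rel, the NF-κB inhibitor gene Nfkbia, the prostaglandin synthase Ptgs2, the activation antigens Cd69 and Cd83, and 4 haemoglobin genes. The 35 included 13 tRNA models, Rpph1, Rn7sl1, Hp and the granule genes Prg2, Mcpt8 and Mcpt10. Haemoglobin and the tRNA models thus differed in all 5 classes alike, and the part of free RNA or of the library itself in either list was not tested.

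**Figure D5:**
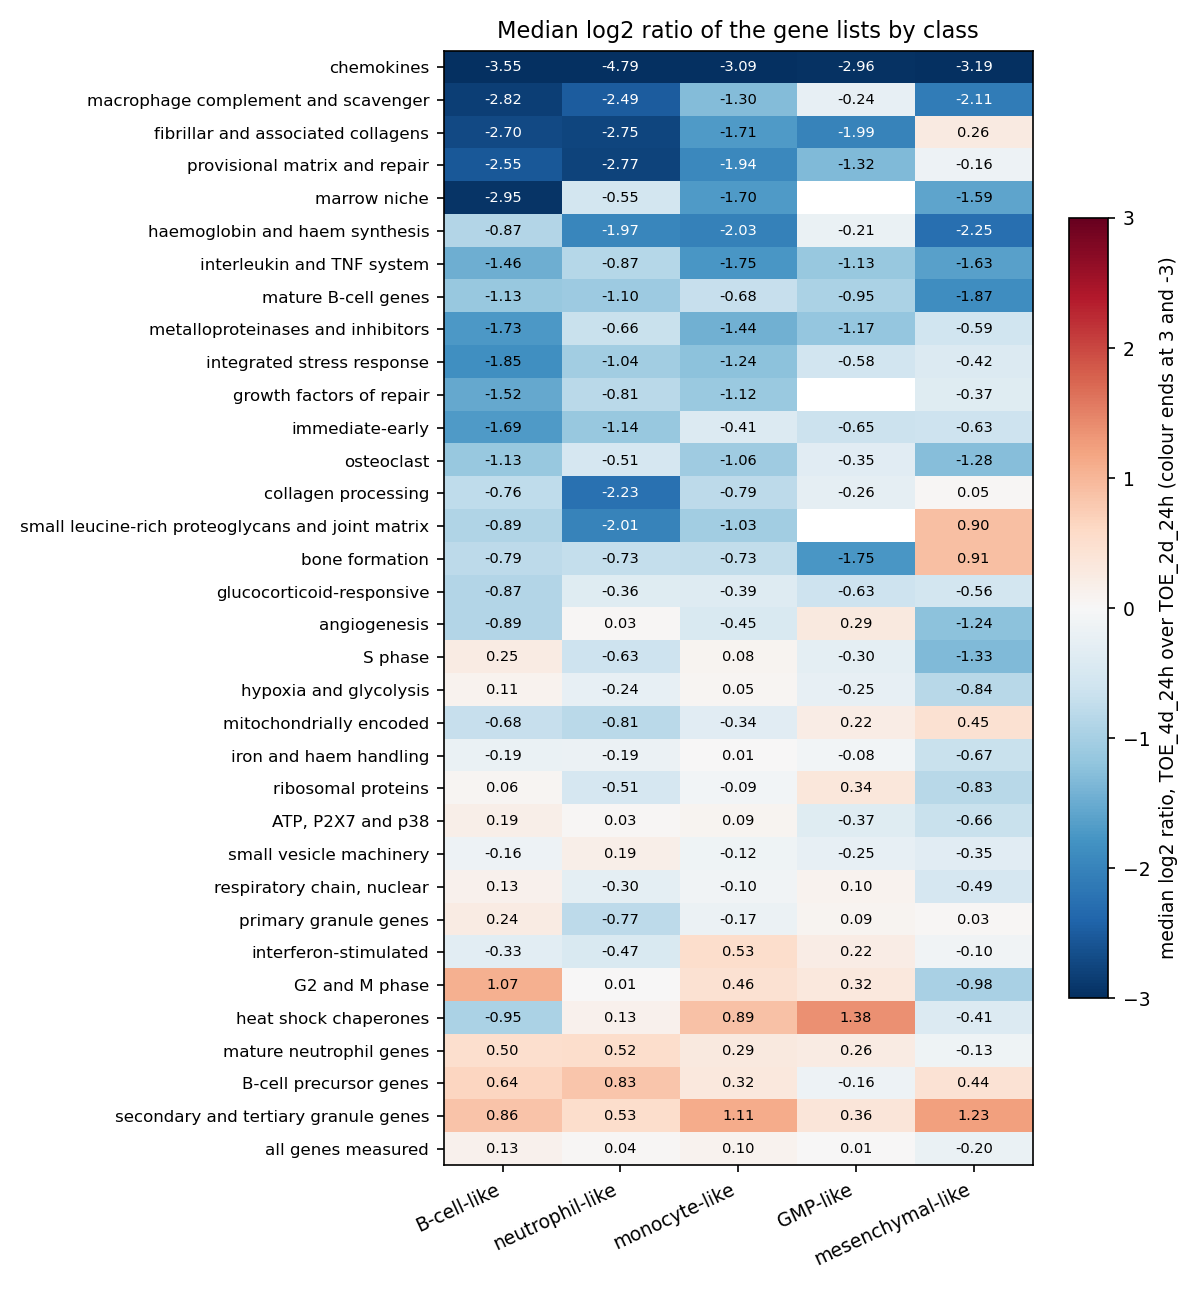
Median log2 ratio, TOE_4d_24h over TOE_2d_24h, of each gene list in 5 cell classes as a heat map whose colours end at -3 and 3, with all genes measured in the last row. Chemokines are lower in all 5 classes (from -2.96 in GMP-like to -4.79 in neutrophil-like cells), heat shock chaperones are higher in GMP-like (1.38) and monocyte-like cells (0.89), and bone formation genes are higher in mesenchymal-like cells (0.91).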

How the data were processed

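The authors deposited UMI counts per gene and barcode, as whole numbers without normalization, for 41801 listed genes, made from 10x Genomics single-cell libraries with Cell Ranger 9.0.0. The submitters' processing notes also name Seurat, R 4.0.3 and the builds mRatBN7.2 and GRCh38, without saying which step used which. No coordinates of the deposited files were used, and promoter sequences came from RefSeq on GRCr8, matched by gene symbol. Of 9 labelled libraries 8 were analysed here.

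The filter on cells required 200 detected genes and a mitochondrial share of UMIs of 20% or less. A cell entered 1 of 13 classes when its marker UMIs passed a threshold per 10000 UMIs, a minimum of UMIs and 2 or 3 distinct markers. The thresholds and the Gpnmb/Apoe-high class were set after the data had been seen, and the members, lists and tests were chosen with earlier results of these data known. Cells of several classes were set aside unless each further class was taken as compatible with the top class. Removal of cells with a Scrublet score of at least 0.25 was an alternative. UMIs were summed per class and library, and levels are CPM with exact Poisson intervals at 95%. Folds of a gene carry exact conditional intervals at 95% on the summed UMIs, which cover counting error only. Log2 ratios used a prior of 0.5 UMI and genes with at least 50 UMIs over both libraries. Genes were called at 2-fold, with no test, since there was 1 library a side. Classes with 50 cells in both libraries gave counts of genes past 2-fold, which left 7, and values of the 18 erythroid-like cells of TOE_4d_24h are given as a description. A gene at 0 UMIs was set against a floor of 3 UMIs. Named genes are the members of the fixed lists and markers, and per class the 8 largest differences each way among genes with at least 100 UMIs, at least 10 cells and a level at least 2-fold that of other cells. Genes beyond this rule (Cd83, Defa5, Rpph1, Rn7sl1) were chosen after their values were seen. Shares of cells with a transcript were taken after each cell was thinned to 1500 UMIs. 1 member of the bone formation list entered its counts and sum and is not reported here. The gene step was tested on simulated data. Columns of values that were not used numbered 0. Software was scanpy 1.11.5, scikit-learn 1.9.0, igraph 0.11.9, pandas 2.3.3, matplotlib 3.10.9, scipy 1.17.1 and numpy 2.4.6 under python 3.11.15.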

Additional observations from a re-analysis of the deposited data

How the results depend on the processing

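No paired analysis was possible because each condition had 1 library, and leaving out a replicate was not possible for the same reason. The 80 other share ratios, 60 other counts and 156 other list counts stayed near the values reported, also without cells marked by Scrublet for the shares, and of the single genes 576 values stayed near and 76 moved.

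The ratio of shares, TOE_4d_24h over TOE_2d_24h, for B-cell-like cells was 1.03 under a stricter filter (500 genes, 10% mitochondrial UMIs) and 1.02 over classified cells only. For erythroid-like cells it was 0.0315 with thresholds raised 1.5 times. With Leiden clusters (2000 variable genes, 30 components, 15 neighbours, resolution 1) the ratio was 0.599 for monocyte-like, 0.0687 for Gpnmb/Apoe-high, 0.173 for erythroid-like, 0.829 for dendritic-cell-like and 0.352 for mesenchymal-like cells. The Leiden mesenchymal-like group held a cluster of 1806 cells with a median of 776 UMIs, and no cluster was named GMP-like, C1q macrophage-like or plasma-cell-like.

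With at least 200 UMIs per gene fewer genes were tested. The numbers at least 2-fold higher and lower in TOE_4d_24h were 1280 and 998 of 12244 in B-cell-like, 823 and 576 of 7953 in neutrophil-like and 70 and 98 of 3478 in GMP-like cells. They were 770 and 773 of 9997 in monocyte-like, 57 and 139 of 1538 in mast-cell/basophil-like, 95 and 276 of 2790 in dendritic-cell-like and 332 and 1078 of 8839 in mesenchymal-like cells. The balance of higher and lower genes moved as well. In mast-cell/basophil-like cells the higher genes made up 29.1% of those past 2-fold, against 56.1% as reported, while in neutrophil-like cells they made up 58.8%, against 55.2%. With the mean over cells they were 957 and 641 in GMP-like cells, and 1028 were higher in mast-cell/basophil-like cells. With a prior of 5 UMIs, 259 were higher in mast-cell/basophil-like cells, and 1300 were higher and 704 lower in mesenchymal-like cells. With Leiden clusters 316 were higher in mast-cell/basophil-like and 898 in dendritic-cell-like cells.

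Among lists, the mature neutrophil genes higher in neutrophil-like cells were 3 without mitochondrial, ribosomal and haemoglobin genes in the total. With at least 200 UMIs fewer members of a list were measured, while their ratios stayed the same. The lower chemokines were then 5 in neutrophil-like and 3 in GMP-like cells, with median log2 ratios of -4.79 and -2.96. The lower interleukin and TNF genes in mesenchymal-like cells were 4, with a median of -1.39. With a prior of 5 UMIs, the lower genes in mesenchymal-like cells were 5 for interleukins and TNF and 7 for S phase. With the mean over cells, that class had 12 immediate-early, 4 G2 and M phase and 7 S phase genes lower and 2 collagens higher. With Leiden clusters it had 11 immediate-early, 0 G2 and M phase, 1 S phase and 5 hypoxia genes lower, and 3 bone formation genes and 2 collagens higher. The log2 ratio reversed with Leiden clusters for Pla2g2a in monocyte-like cells (0.12) and for Epx (-0.43), Prg3 (-0.96) and Rnf220 (-0.50) in mast-cell/basophil-like cells. The cause was not tested. With 1 library a side the spread between animals is unknown, and depth limits the genes to those with at least 50 UMIs over both libraries.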
